A study of Mus musculus with 9 samples.

Results

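The replication-dependent histone genes supply the bulk of the histones that package newly copied DNA. A set of 67 such genes was examined, namely every protein-coding gene of the mm9 (NCBIM37) GENCODE annotation whose symbol begins with Hist1h, Hist2h, Hist3h or Hist4h, out of 22367 protein-coding genes. ATAC-Seq, in which a transposase inserts sequencing adapters into accessible DNA, had been performed on mouse embryonic fibroblasts (MEFs) carrying an Oct4-GFP reporter and infected with pMXs retroviruses for Oct4, Sox2, Klf4 and c-Myc (OSKM). The 7 libraries of the time course were the MEFs themselves (D0), unsorted cells of day 3 (D3), Thy-1-negative cells of days 6 and 9 (D6T- and D9T-), SSEA-1-positive cells of days 12 and 16 (D12S+ and D16S+) and fully reprogrammed iPSCs, Thy-1 being a fibroblast surface protein and SSEA-1 an early surface sign of pluripotency. The other 2 libraries came from day 6 cells, labelled Thy-1-negative, that had received siRNA against the H3.3 genes H3f3a and H3f3b (D6 siH3.3) or a non-targeting siRNA (D6 siNT) ahead of the infection. There was 1 library per condition, so that differences below compare libraries, have no replicate check and carry no p-value.

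Replication-dependent histone genes typically lack introns, are transcribed mainly in S phase and lie in clusters, where H2A and H2B genes are often arranged head to head over a shared promoter. The coactivator Npat, a substrate of cyclin E and Cdk2, gathers at the clusters in the histone locus body. Their mRNAs end in a conserved stem-loop bound by Slbp instead of a poly(A) tail. Replacement histones such as H3.3, in contrast, come from scattered genes that are expressed outside S phase as well.

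Of the 67 genes, 55 belonged to Hist1 on chromosome 13, 9 to Hist2 on chromosome 3, 2 to Hist3 on chromosome 11 and 1, Hist4h4, lay alone on chromosome 6. By type, 6 encoded the linker histone H1, and 19, 18, 11 and 13 encoded the core histones H2A, H2B, H3 and H4. Gaps of more than 100 kb divided Hist1 into a block of 18 genes (chr13:21807632-21929399), a block of 5 (chr13:22126982-22135545), a block of 29 (chr13:23622919-23856283), the pair Hist1h2ba and Hist1h2aa (chr13:24025637-24026720) and the lone Hist1h2al (chr13:51298057-51298434). Hist2 spanned chr3:96023839-96082924 and Hist3 chr11:58762413-58770176. The names were borne out by the stem-loop letters CTTTTCAG, which were found on the sense strand within 200 bp past the coding sequence in 49 of the 67 genes (73.1%) and in 0.912% of all protein-coding genes. The 3 forms carried by more than 1 gene are shown with the invariant loop and its flank in capitals, since they are the signature of the class. The 1st was shared by 36 genes of types H1, H2A, H2B and H3, the 2nd by 8 H4 genes and the 3rd by 2 H4 genes.
stem-loop of H1, H2A, H2B and H3 genes: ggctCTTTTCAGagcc
stem-loop of 8 H4 genes: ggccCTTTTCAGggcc
stem-loop of Hist1h4b and Hist1h4j: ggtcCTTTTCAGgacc

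Promoter letters also set the class apart. In the 250 bp before to 50 bp after the annotated 5′ end, on either strand, TATAAA was found in 56.7% of the histone genes against 13.4% of all protein-coding genes, CCAAT in 85.1% against 37.9%, the octamer ATTTGCAT in 22.4% against 1.73% and AAACACA (the AC box of H1 promoters) in 14.9% against 6.42%. The octamer, the letters read by the Pou2f1 protein, was found only in H2A genes (7 of 19) and H2B genes (8 of 18). The windows of head-to-head partners overlap, so that a match between them counts for both genes. Both partners held the octamer at Hist1h2ac and Hist1h2bc, Hist1h2ae and Hist1h2bg, Hist1h2ah and Hist1h2bk, Hist1h2ba and Hist1h2aa, and Hist2h2ac and Hist2h2be. AAACACA was found in 5 of 6 H1 genes, and in 1 H2A, 3 H2B and 1 H3 gene. CCAAT was present in every H1, H2A and H2B gene but in only 4 of 13 H4 genes. To be compared are an open and a closed example of each arrangement, with matches to any of the 4 motifs on either strand in capitals: the interval between the 5′ ends of Hist1h2ac and Hist1h2bc (chr13:23775817-23776068, + strand), the middle of the interval between the testis genes Hist1h2ba and Hist1h2aa (chr13:24026028-24026327, + strand), and the promoters of the H1 genes Hist1h1c (chr13:23830426-23830725, + strand) and Hist1h1t (chr13:23787430-23787729, + strand), all in mm9.
Hist1h2ac-Hist1h2bc, open in 9 of 9 libraries: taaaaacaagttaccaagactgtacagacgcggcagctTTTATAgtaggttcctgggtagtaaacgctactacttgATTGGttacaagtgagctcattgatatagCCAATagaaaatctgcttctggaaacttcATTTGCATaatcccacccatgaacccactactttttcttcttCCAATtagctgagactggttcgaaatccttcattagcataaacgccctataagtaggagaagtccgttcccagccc
Hist1h2ba-Hist1h2aa, open in 0 of 9 libraries: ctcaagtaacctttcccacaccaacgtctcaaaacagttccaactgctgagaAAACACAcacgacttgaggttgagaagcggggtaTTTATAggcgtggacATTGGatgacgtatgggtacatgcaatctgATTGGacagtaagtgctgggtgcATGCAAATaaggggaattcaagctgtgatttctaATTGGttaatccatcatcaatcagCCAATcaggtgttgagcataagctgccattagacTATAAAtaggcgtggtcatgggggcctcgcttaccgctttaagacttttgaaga
Hist1h1c, open in 9 of 9 libraries: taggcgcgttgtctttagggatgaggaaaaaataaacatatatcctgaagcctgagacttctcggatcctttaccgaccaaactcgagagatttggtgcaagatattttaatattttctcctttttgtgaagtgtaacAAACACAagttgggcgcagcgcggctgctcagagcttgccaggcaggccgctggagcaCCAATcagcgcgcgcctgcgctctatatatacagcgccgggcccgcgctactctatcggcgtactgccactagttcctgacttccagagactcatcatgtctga
Hist1h1t, open in 0 of 9 libraries: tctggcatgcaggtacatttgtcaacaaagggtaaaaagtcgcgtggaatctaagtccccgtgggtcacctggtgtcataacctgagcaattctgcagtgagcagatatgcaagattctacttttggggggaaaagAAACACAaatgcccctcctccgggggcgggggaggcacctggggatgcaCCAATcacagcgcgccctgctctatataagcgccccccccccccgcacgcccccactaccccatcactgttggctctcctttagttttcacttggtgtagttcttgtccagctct

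The open and the closed H2A-H2B interval both held TATA letters, CCAAT letters and the octamer, and the promoter of the open and that of the closed H1 gene both held the CCAAT letters and the AC box. These shared letters therefore did not separate the open from the closed example. The AC box letters lay in the closed H2A-H2B interval and not in the open one, although the promoter window of Hist1h2bc held them too. With 1 example of each kind, nothing follows for other genes. A peak region reached over the Hist1h1c stretch in 9 of 9 libraries and over the Hist1h1t stretch in 0, but the highest summit of Hist1h1c lay 846 to 967 bp downstream of its 5′ end.

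A gene was called open when a peak region overlapped the window from 1 kb upstream of its 5′ end to its 3′ end. Its level was taken from the highest summit of the regions over the window, as the pileup there (how many tags cover the summit once each is lengthened to 200 bp) per 1000000 tags of the library (counts per 1000000, CPM). That summit can lie beyond the window, at a neighbouring gene, and this was so for 2 to 10 of the open histone genes depending on the library (3.51 to 15.6%, against 1.30 to 2.42% of all open genes). For most named genes of this kind the value of the highest summit inside the gene's own window is given as well. Totals ranged from 13213117 tags (D9T-) to 31714845 tags (D0). Peaks were called down to 0.331 CPM in D3 but only down to 0.530 CPM in D9T-, so that a closed gene is one below that level and not one without tags. All 9 files listed peaks on the mitochondrial genome, with a mean pileup of 9044 to 18608 tags, so that the totals contain mitochondrial tags although the study's methods state their removal. Of 7 pluripotency genes (Nanog, Zfp42, Esrrb, Tdh, Dppa5a, Utf1 and Tdgf1), 7 were open at D12S+, D16S+ and in iPSCs and 1 to 5 elsewhere, whereas of 7 fibroblast genes (Col1a1, Col1a2, Thy1, Twist1, Prrx1, Pdgfrb and Postn) 6 were open at D0 and 3 to 6 elsewhere, with 5 in iPSCs. Many histone genes are near copies. Unique sequence was counted in the window from 1 kb upstream to 500 bp downstream of the 5′ end. There a median of 76.4% of 51-base words (the tag length) occurred once in the genome. This share was lowest for H2A (59.9%) and H2B (63.5%), followed by H3 (75.9%), H4 (86.6%) and H1 (95.6%). The windows of Hist1h2ao, Hist1h2ap, Hist1h2bq and Hist1h2br held no unique word, and yet in 9 of 9 libraries a summit lay at least 200 bp inside them. Tags that lie in repeated sequence are hence in the files, although the methods describe removal of ambiguously mapped reads. Whether read pairs placed them was not tested, since only single words were searched. By single words the copies cannot be told apart.

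Histone genes were open more often than protein-coding genes as a whole in every library. At D0 53 of the 67 genes were open (79.1%, 95% Wilson interval 67.9 to 87.1), against 68.4% of all protein-coding genes. The count rose to 64 both on day 3 (D3, 75.0% of all genes) and in D6T- cells (74.6%), was 59 in D9T- cells (57.5%), 64 again in D12S+ (69.0%) and D16S+ cells (68.8%), and 58 in iPSCs (70.3%). In the siRNA libraries 57 (siH3.3, 61.4% of all genes) and 59 (siNT, 61.6%) were open. The windows of long genes are wider. With the same window for every gene, from 1 kb upstream to 500 bp downstream of the 5′ end, the share of all genes was 51.4% at D0 and 46.5 to 63.5% elsewhere, while that of the histone genes stayed as it was except in siH3.3 (83.6%). Intervals cover counting error only, and genes that share a region are not independent. Hist1h1t, Hist1h2ba and Hist1h2aa, the testis genes for an H1, an H2B and an H2A, were closed in 9 of 9 libraries, and the other 64 were all open at D3, D6T-, D12S+ and D16S+.

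Across the 9 libraries 48 histone genes (71.6%) were open throughout, against 51.2% of all protein-coding genes, and no histone gene was open in 1 to 4 libraries. H2B was the type most often open throughout (16 of 18 genes), followed by H4 (10 of 13), H2A (13 of 19) and H3 (7 of 11), whereas only 2 of 6 H1 genes, Hist1h1c and Hist1h1e, were. The other 16 genes with a peak in at least 5 libraries were most often closed at D0 (11 of them), followed by siH3.3 (7), iPSCs (6), D9T- and siNT (5 each). Hist1h2ab and the outlying Hist1h2al were the least often open of these, in 5 libraries each. With the same window for every gene and only summits inside it, the highest summit lay within 500 bp of the 5′ end in 92.9 to 98.4% of the open histone genes, close to the 93.8 to 96.3% of all open genes.

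**Figure D1:**
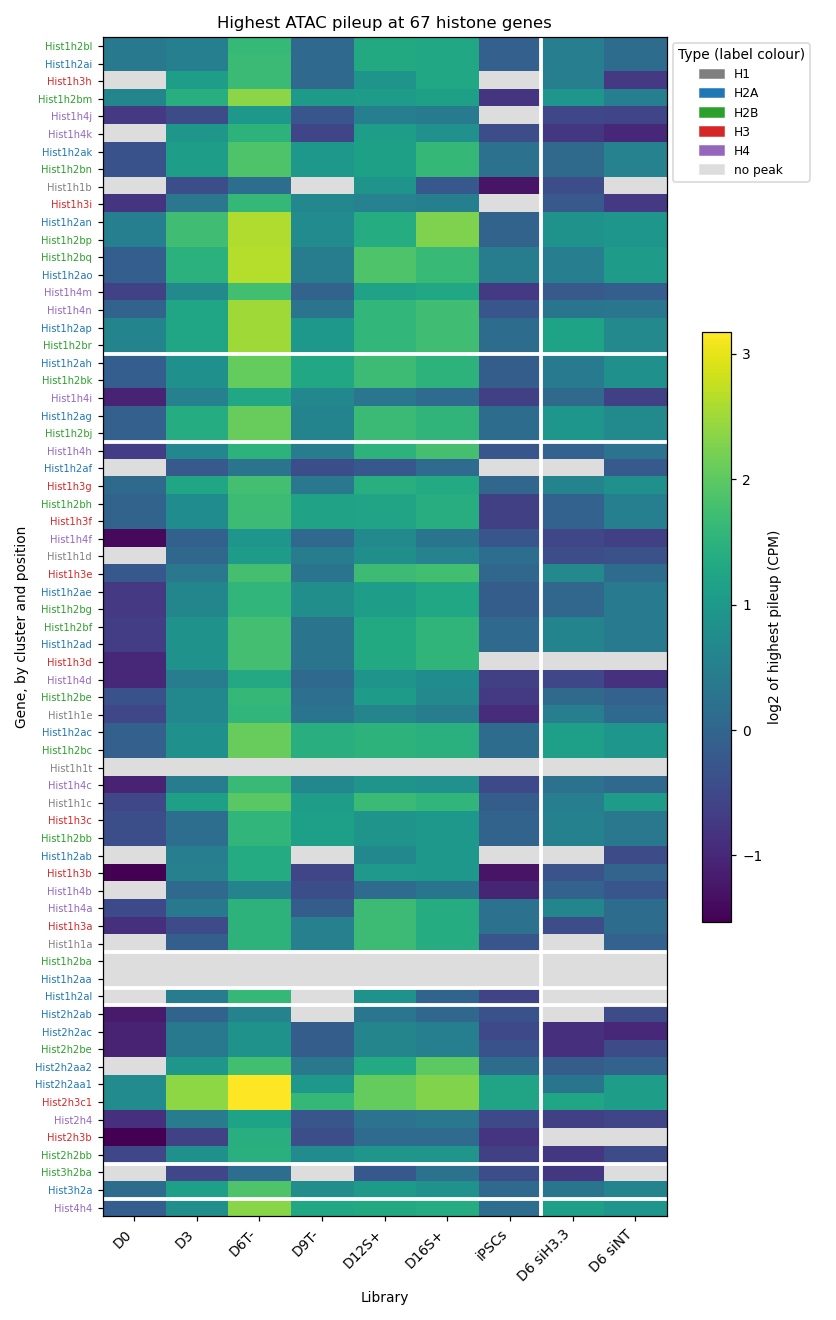
Highest pileup (log2 of CPM, colour) of the 67 histone genes (rows, ordered by cluster and position, label colour giving the type) in the 9 libraries (columns). Grey marks genes with no peak, and white lines part the blocks and the siRNA libraries. The 3 testis genes are grey in 9 of 9 libraries, and the D6T- column is the brightest.

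Other genes within the Hist1 span were seldom open. Between the outermost Hist1 genes, leaving out the distant Hist1h2al, lay 48 other protein-coding genes, of which 6 to 13 were open depending on the library. The 5 open in 9 of 9 libraries were Abt1, Btn2a2, Gm17658, Zfp184 and Zfp322a. Of the 48, 33 were vomeronasal receptor genes (symbols in Vmn1r or V1r), which are expressed in sensory neurons, and 31 of these were closed in 9 of 9 libraries. No other protein-coding gene lay within the Hist2 span.

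Head-to-head gene pairs often shared a region. In 13 pairs the 5′ ends of divergent genes lay 168 to 693 bp apart, of which 12 were H2A-H2B pairs and 1 was Hist1h2bh with Hist1h3f. Each window takes in the 5′ end of the partner, so that a shared region over both windows follows from the choice of window wherever the pair had a peak. A single region reached over both 5′ ends in 9 of 9 libraries in 8 of the 13 pairs, in 7 or 8 libraries in 3 others, and in 0 of 9 at Hist1h2bh with Hist1h3f and at the closed testis pair Hist1h2ba and Hist1h2aa, 306 bp apart. Depending on the library, 32 to 43 histone genes shared a region with another one, and a region covered up to 3 of them. In 10 pairs both genes had the same highest summit in 9 of 9 libraries, so that their levels are a single measurement. The pair Hist1h2ac and Hist1h2bc measured 0.946, 1.79, 4.25, 2.72, 2.84, 2.74 and 1.09 CPM in the time order of the libraries, from D0 to iPSCs. D6T- was its highest library and D0 its lowest.

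The level at open histone genes followed that of all open genes, with an excess in the late sorted cells. The median at D0 was 0.788 CPM for the 53 open histone genes and 0.883 for all open protein-coding genes. Over D3, D6T- and D9T- the histone median was 1.62, 3.16 and 1.44 CPM where that of all genes was 1.62, 2.80 and 1.36. Over D12S+, D16S+ and iPSCs it was 2.24, 2.46 and 0.903 CPM where that of all genes was 1.82, 1.79 and 1.02. The ratio of the medians was thus 0.893 at D0, highest at D16S+ (1.37) and lowest in iPSCs (0.889). With only summits inside the gene's own window it was again highest at D16S+ (1.29) but lowest at D0 (0.857). With each peak counted once the ratio was highest at D12S+ (1.14), followed by D16S+ (1.11) and D6T- (1.08), and lowest at D0 (0.786). The place of D16S+ as the highest library thus depends on counting shared peaks more than once. The histone median stood at percentile 68.4 of all open genes at D16S+, and at 41.2 in iPSCs and 41.3 at D0. Against only those genes open in all 9 libraries, the ratio at D12S+ was 0.988, so that the position above the median in D12S+ depends on the genes it is set against.

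**Figure D2:**
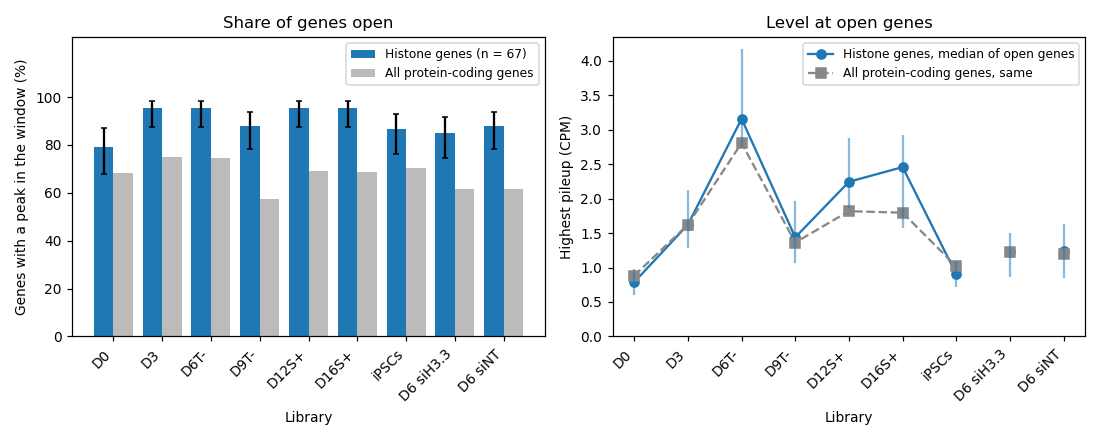
Left, share of genes with a peak (%) for the 67 histone genes (blue, bars of the 95% Wilson interval) and all 22367 protein-coding genes (grey) in each library. Right, median highest pileup (CPM) at the open histone genes (blue, vertical lines from the 25th to the 75th percentile) and at all open genes (grey), with the histone median above the other at D12S+ and D16S+ and below it in iPSCs.

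The core histone types differed in level. H2A genes had the highest median in most time-course libraries, at 1.04 to 1.55 times the median of all open genes, followed by H2B at 0.926 to 1.47 times. The H3 median ranged from 0.750 (D0) to 1.42 times (D16S+), that of H4 from 0.679 (D0) to 1.03 times (D12S+) and that of H1 from 0.633 (D3) to 1.03 times. Averaged over the 7 libraries the figure was 1.23 for H2A and 1.18 for H2B, but 0.723 for the 6 H2A genes and 0.858 for the 5 H2B genes with at least 80% unique words in the window, so that the position of H2A and H2B above all genes did not hold among the genes with mostly unique windows. For H4 the figure was 0.866, and 0.799 for its 10 genes with mostly unique windows. Among such genes H3 stood highest (1.18, 3 genes), H1 was at 0.875 (6 genes) and H2A was the lowest type, so that the order of the types turned. The medians are over open genes, so that the closed Hist1h2aa, Hist1h2ba and Hist1h1t, counted in these numbers, added no value. Other genes were closed in some libraries, and few genes carry this order. Among the 5 H2B genes with mostly unique windows, Hist1h2ba was closed. Except at D3, Hist1h2be took its time-course levels from summits 35125 to 35227 bp downstream of its annotated 5′ end. Those summits lie outside the stretch searched for unique words. Except at D3, Hist1h2bh took its time-course levels from summits beyond its window. Of the H3 genes, Hist1h3a took its level at D12S+, D16S+ and in iPSCs from a summit of the neighbouring Hist1h4a. These types share promoters and regions, and the spread over libraries is not a replicate error.

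**Figure D3:**
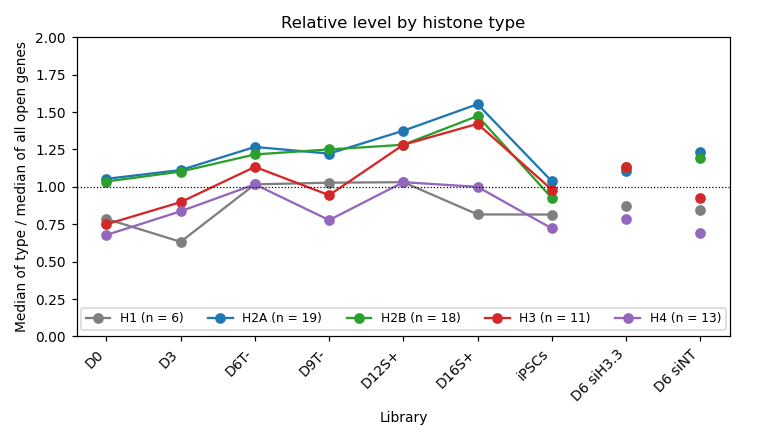
Median highest pileup of the open genes of each histone type over the median of all open protein-coding genes (ratio, dotted line at 1), by library, with n the genes of the type. H2A and H2B lie above H4 in all 9 libraries, and the H2A, H2B and H3 lines peak at D16S+.

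Among the H1 genes Hist1h1c had the highest median over the time course, at 0.694, 2.22, 3.93, 2.12, 3.18, 2.98 and 0.903 CPM from D0 to iPSCs. Hist1h1a had no peak at D0 and, by the highest summit inside its own window, measured 0.926, 2.01, 0.605, 1.31, 1.32 and 0.828 in the same order from D3 to iPSCs. The regions over it were higher from D6T- to D16S+ (1.44 to 3.24), at summits of the neighbouring Hist1h3a and Hist1h4a. Hist1h1b had no peak at D0 and D9T- and reached 1.19 at D12S+ inside its window, where the region's summit beyond its 3′ end gave 1.87. These H1 genes encode linker histones of dividing somatic cells, whereas Hist1h1t, the testis H1, had no peak.

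The highest H3 level was that of Hist2h3c1 in Hist2, at 1.67, 5.16, 9.02, 3.03, 4.20, 4.86 and 2.33 CPM from D0 to iPSCs. The D6T- value was the highest of any histone gene in any library. Of the words in the Hist2h3c1 window searched for unique sequence, 54.1% were unique. Its summits from D0 to iPSCs lay 948 to 998 bp downstream of its 5′ end, past that window. The H2A gene Hist2h2aa1, whose annotated 5′ end lies 16 bp away on the same strand, ends before them, and yet its region had the same highest summit in every time-course library but D9T-. By summits inside its own window Hist2h2aa1 measured 1.32, 2.75, 5.05, 1.97, 3.58, 4.01 and 1.81 CPM from D0 to iPSCs. Hist2h2aa2, a near copy of Hist2h2aa1, had no peak at D0 and measured 1.95, 3.37, 1.29, 2.55, 3.97 and 1.09 from D3 to iPSCs.

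The other Hist2 genes were low. Hist2h2ac measured 0.473, 1.29, 1.82, 0.908, 1.53, 1.42 and 0.715 CPM from D0 to iPSCs, and its head-to-head partner Hist2h2be differed only in iPSCs (0.790, from a summit beyond its window). Hist2h4 ranged from 0.536 (D0) to 2.29 (D6T-), Hist2h2bb from 0.640 (iPSCs) to 2.76 (D6T-, at a summit 8498 bp into the annotated gene), Hist2h3b from 0.347 (D0) to 1.87 (D6T-, inside its own window) and Hist2h2ab from 0.441 (D0) to 1.5 (D6T-) with no peak at D9T-. The Hist2 median was 0.571 (D0) to 0.967 (D6T-) times that of all open genes, and the Hist1 median 0.893 (D0) to 1.43 times (D16S+).

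The smaller loci went different ways. Hist4h4, the lone H4 gene of chromosome 6 with a 96.8% unique window, measured 0.914, 1.75, 5.05, 2.42, 2.50, 2.60 and 1.13 from D0 to iPSCs, which was 1.04 to 1.80 times the median of all open genes. The summits at D6T- and in iPSCs lay past its 3′ end, and inside its own window the values there were 2.15 and 0.527, with D16S+ then its highest library. In Hist3, Hist3h2a measured 1.10, 2.18, 3.69, 1.74, 2.04, 1.84 and 1.05 over the same libraries. Its neighbour Hist3h2ba had no peak at D0 and D9T- and stayed at 0.695 to 1.18 in the other 5.

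Within Hist1 the highest H2A and H2B medians over the time course were those of the fully repeated pair Hist1h2ao and Hist1h2bq. This pair measured 0.914, 2.78, 6.31, 1.36, 3.69, 3.16 and 1.35 CPM from D0 to iPSCs. It was lower than the pair Hist1h2an and Hist1h2bp at D0, D3, D9T- and D16S+. Hist1h4n, with 3.24% unique words, reached 5.70 at D6T- at the summit of the neighbouring pair Hist1h2ap and Hist1h2br, and 3.13 inside its own window. The tags of Hist1h4n and of the fully repeated pairs may come from any of the copies. Hist1h3g, in a window with 82.2% unique words, measured 1.07, 2.35, 3.41, 1.29, 2.67, 2.55 and 1.02. All of these were highest at D6T-, as was the all-gene median.

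Changes along the time course were next set against those of all genes, over genes open in both libraries. From D0 to D3 the median log2 ratio was 1.22 over 53 histone genes and 1.01 over all genes, and 46 were at least 1.5-fold higher (71.7% of all genes were). From D3 to D6T- it was 0.91 against 0.75, with 56 of 64 at least 1.5-fold higher (69.1% of all genes). From D6T- to D9T- it was -1.24 against -1.26, with 55 of 59 at least 1.5-fold lower (92.0%), and from D9T- to D12S+ it was 0.64 against 0.59, with 33 of 59 higher (50.3%). Between D12S+ and D16S+ the medians were -0.02 and -0.05, with 3 of 64 higher (6.56%) and 2 lower (9.93%). From D0 straight to D6T- the median was 2.17 against 1.80, lowest at the pair Hist1h2bl (1.26) and Hist1h2ai (1.30) and highest at the H3 genes Hist2h3b (2.97) and Hist1h3b (2.89). At both, the D6T- summit was that of a neighbouring gene, 963 bp downstream of the Hist2h3b 5′ end and 925 bp upstream of the Hist1h3b 5′ end, while the D0 summit lay at the gene's own 5′ end. Inside its own window Hist2h3b came to 2.43. Scaled to the genes open in all 9 libraries, the histone medians of these steps were 0.06 (D0 to D3), 0.14, 0.14 and -0.02 (D9T- to D12S+), and those of all genes were -0.15, -0.02, 0.11 and -0.07. Most of the movement up to D12S+ was thus that of all open genes. This scaling shifts every gene alike, and the sign of the D9T- and D12S+ steps turned for all genes as for the histone genes.

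The step from D16S+ to iPSCs was where histone genes departed most from all genes. Their median log2 ratio was -1.37 (range -2.30 to -0.38, n = 58) against -0.80 over all genes. Of the 58 genes, 54 were at least 1.5-fold lower (64.7% of all genes were) and only 6 lay above the all-gene median. The median was low in every type, at -1.38 for H1 (n = 5), -1.37 for H2A (n = 16), -1.42 for H2B (n = 17), -1.24 for H3 (n = 8) and -1.29 for H4 (n = 12), and was -1.41 in Hist1 and -0.99 in Hist2. Another 6 genes were open at D16S+ and closed in iPSCs (2.69% of all genes were), and none the other way (4.18% of all genes). With 64 of the 67 genes open at D16S+, only the 3 testis genes could have gained a peak, so that the absence of gains carries no information. With only summits inside the gene's own window the median was again -1.37, against -0.79 over all genes. Over the 24 genes with at least 80% unique words the median was -1.23. Scaled to the genes open in all 9 libraries, the median of the 58 genes was -0.47 against 0.10 for all genes.

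By summits inside its own window Hist1h3b, an H3 gene, measured 1.42 CPM at D16S+ and 0.414 in iPSCs (log2 ratio -1.78). The region over it reached 1.98 at D16S+ at the neighbouring Hist1h2ab. Hist1h1c measured 2.98 and 0.903 (-1.72). The H2B gene Hist1h2bm measured 2.22 at D16S+ and 0.564 in iPSCs (-1.98). Hist2h2ab moved least among Hist2 genes, from 1.04 to 0.790 (-0.40). D16S+ cells had been sorted and iPSCs had not, and each condition is 1 library, so that sort, cell state and library cannot be told apart here.

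iPSCs and the starting MEFs came out at like levels. Over 50 genes open in both, the median log2 ratio of iPSCs over D0 was 0.32 against 0.25 for all genes, 12 were at least 1.5-fold higher (26.7% of all genes) and 3 at least 1.5-fold lower (7.91%). The highest were Hist1h4f, at 0.828 in iPSCs and 0.378 at D0 (log2 ratio 1.13), and Hist1h3a, at 1.17 and 0.536 (1.12). The iPSC summit of Hist1h3a was that of the neighbouring Hist1h4a, and inside its own window it measured 0.451 in iPSCs (-0.25). The lowest were Hist1h2bm, at 0.564 and 1.55 (-1.45), and Hist1h2bh, at 0.640 and 0.977 (-0.61), with 0.489 and 0.631 inside its own window (-0.37). By summits inside each gene's own window, the lowest after Hist1h2bm were instead Hist4h4 (-0.80) and Hist1h4m (-0.68). The highest after Hist1h4f was then Hist2h2ab (0.84). The median by own-window summits was 0.25 for the histone genes and 0.25 for all genes. By the highest summit of the regions, the median was -0.46 in the Hist1 block of 18 genes (13 open in both, range -1.45 to 0.57). It was 0.37 in the block of 29 (22 open in both, -0.61 to 1.13) and 0.54 in Hist2 (8 open in both, -0.12 to 0.84). The 13 genes include head-to-head pairs that count 1 measurement for both partners, and genes with few or no unique words. A difference between blocks was not tested. Of the 2 libraries, a further 8 genes were open only in iPSCs (6.99% of all genes were) and 3 only at D0 (5.13%).

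**Figure D4:**
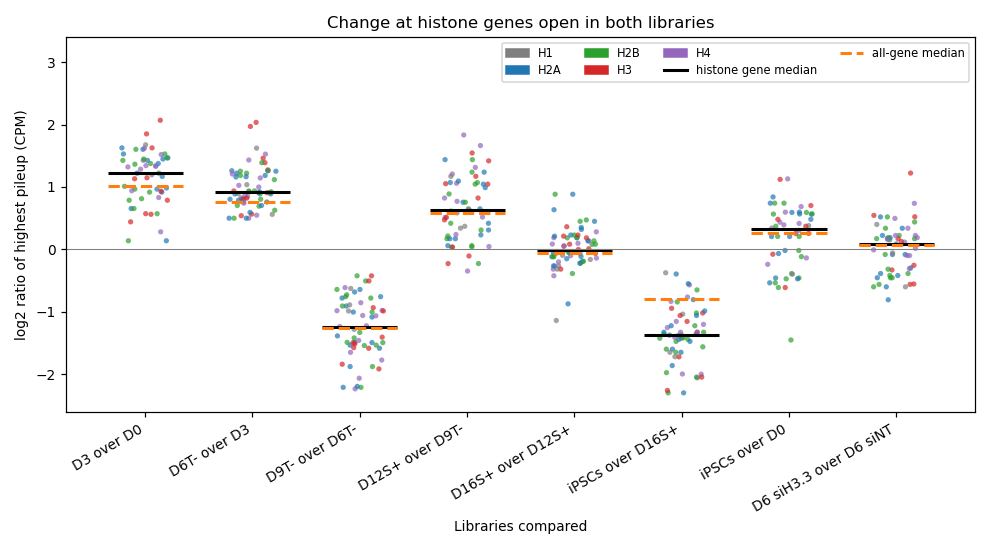
log2 ratio of the highest pileup (CPM) at each histone gene open in both libraries (points, coloured by type, spread sideways for legibility) for 8 pairs of libraries, with the median of the histone genes (black line) and of all protein-coding genes (orange dashes). The 2 medians lie close together except for iPSCs over D16S+, at -1.37 and -0.80.

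The siH3.3 and siNT libraries differed little at the histone genes as a group, as at all genes. The question is of interest because the replication-dependent H3 genes encode the counterparts of H3.3 that are deposited during replication. Over 55 genes open in both libraries the median log2 ratio of siH3.3 over siNT was 0.09 (range -0.81 to 1.22) against 0.06 for all genes. At least 1.5-fold higher were 2 genes (6.87% of all genes) and at least 1.5-fold lower were 4 (3.97%). The 95% Poisson intervals of the 2 libraries overlapped for all 55 genes, and these intervals cover counting error only. Overlap of separate intervals does not show that a gene was unchanged, and no interval of the ratio itself was computed. By type the median was -0.06 for H1 (n = 3), -0.08 for H2A (n = 14), 0.03 for H2B (n = 16), 0.13 for H3 (n = 9) and 0.16 for H4 (n = 13).

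The gene that stood highest in siH3.3 was Hist1h3h, an H3 gene, with 26 tags at the summit against 13, or 1.39 against 0.597 CPM (log2 ratio 1.22). That summit in siH3.3 lay at the neighbouring Hist1h2ai promoter, and with only summits inside its own window it held 15 tags against 13 (0.43). Hist1h4i followed with 20 against 14 tags, or 1.07 against 0.643 CPM (0.74). Next came Hist1h3e (1.61 against 1.10 CPM), Hist1h3i (0.857 against 0.597) and Hist1h2br (2.30 against 1.61), all under 1.5-fold.

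The lowest was Hist2h2aa1, with 23 tags in siH3.3 against 47 in siNT, or 1.23 against 2.16 CPM (log2 ratio -0.81). For the overlapping Hist2h3c1, whose window is longer, the values were 2.36 and 2.16, and with only summits inside the window Hist2h2aa1 held 23 against 34 tags (-0.34). Hist1h1c had 26 against 46 tags, or 1.39 against 2.11 CPM (-0.60). The repeated pair Hist1h2ao and Hist1h2bq had the same counts as Hist1h1c, while the copy pair Hist1h2ap and Hist1h2br was higher in siH3.3. Hist1h2bh had 0.964 against 1.42 CPM (-0.56), and -0.31 with summits inside its own window. Hist4h4 went the other way, at 2.20 against 1.93 CPM (0.19) from summits past its 3′ end. Inside its own window Hist4h4 held 21 against 37 tags (-0.59), which is at least 1.5-fold lower in siH3.3.

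Peaks present in only 1 of the siRNA libraries were small. Hist3h2ba (11 tags) and Hist1h1b (14 tags) had a peak in siH3.3 and none in siNT, a pattern seen in 2.95% of all genes. Hist1h2af (19 tags), Hist1h2ab (16), Hist1h1a (21) and Hist2h2ab (16) had a peak in siNT and none in siH3.3, as had 3.13% of all genes. Of these, Hist1h2ab held no summit inside its own window, and Hist1h1a held 15 tags there. The lowest pileups called as peaks were 8 tags in siH3.3 and 9 in siNT. A further 6 histone genes were closed in both. The siNT library was lower than the D6T- library of the same day, with a median log2 ratio of D6T- over siNT of 1.48 for the histone genes and 1.42 for all genes.

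**Figure D5:**
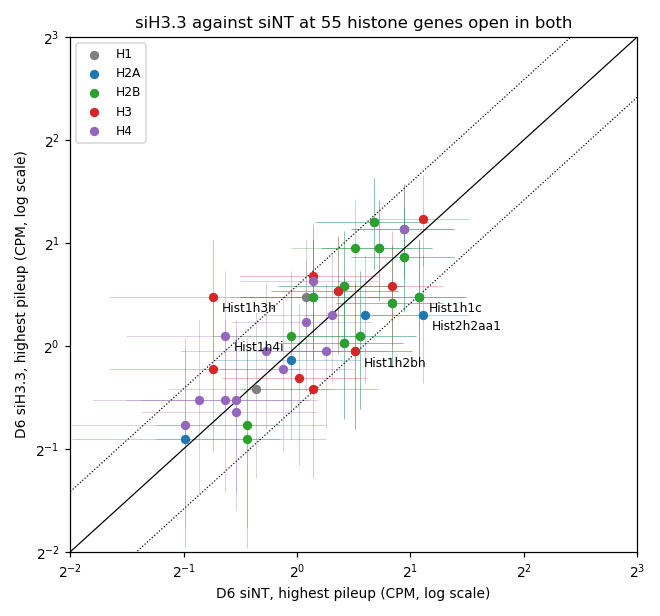
Highest pileup (CPM, log axes) in D6 siH3.3 against D6 siNT for the 55 histone genes open in both, coloured by type, with 95% Poisson intervals as thin lines, the line of equality and dotted lines at 1.5-fold. Genes that share a region lie on top of each other. Of the points, 2 lie above and 4 below the dotted lines, and every point's interval in 1 library overlaps that in the other.

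Genes that control histone expression were open and stood above the median of all open genes. From a list of 18 (among them Npat, Casp8ap2 and Hinfp of the transcription machinery, the octamer reader Pou2f1, Ccne1, Ccne2 and Cdk2 of the cell cycle, and Slbp, Lsm10 and Lsm11 of mRNA 3′ end formation), 17 were open at D0 and 18 in each other library, with a median level 1.39 to 1.88 times that of all open genes. Of all protein-coding genes 57.5 to 75.0% were open, depending on the library. Npat measured 1.67, 5.29, 8.60, 3.25, 4.60, 4.30 and 1.96 CPM from D0 to iPSCs. In siH3.3 over siNT the median log2 ratio of the 18 was 0.09. At least 1.5-fold higher were 2 (Slbp at 0.89 and Ccne1 at 0.68), as were 6.87% of all genes. At least 1.5-fold lower was 1 (Sympk, a 3′ end processing factor, at -0.70), as were 3.97% of all genes.

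Of 10 replication-independent histone genes, 9 or 10 were open in each library (57.5 to 75.0% of all genes), with a median level 1.13 to 1.78 times that of all open genes. The siRNA targets themselves had peaks in both libraries. H3f3a measured 1.55 CPM in siH3.3 and 1.42 in siNT, and H3f3b 1.5 and 1.88. RNA interference acts on the mRNA, so that accessibility at these genes does not check the knockdown. Of the 9 such genes open in both siRNA libraries none was at least 1.5-fold higher (6.87% of all genes). At least 1.5-fold lower was 1, H2afx at a log2 ratio of -0.68 (3.97% of all genes).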

How the data were processed

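Peak files from 9 ATAC-Seq libraries, grouped by the titles, were used. Per the file headers, the authors called peaks in each library with MACS2 2.1.0.20151222 without a control, model or local lambda, with all duplicates kept at that step, a q-value cutoff of 0.05, tags of 51 bp and an extension of 200 bp. The submitters' processing notes name STAR, Picard and mm9, and the methods describe removal of duplicate, mitochondrial and ambiguously mapped reads. The deposited files give for each summit the pileup (a signal in whole tags, not normalised), the fold enrichment (a ratio over the genome-wide background), and −log10 p-values and q-values. The files used here hold no reads, so that levels below the cutoff are unknown.

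Summits of overlapping peaks were merged into regions. Each gene's window was searched for overlapping regions (at least 1 bp) and the highest pileup was divided by the total tags in the header and multiplied by 1000000 (CPM). The 7 time-course and 2 siRNA libraries were compared as ratios over genes open in both, at 1.5-fold, without a test, since there was 1 library per condition. Counts and medians stand beside those of all protein-coding genes on chromosomes 1 to 19, X and Y. Wilson and exact Poisson intervals (95%) cover counting error only. Motifs and 51-base words were read from the NCBIM37 genome. The members and gene lists were chosen with earlier results of these data known. Named were the 2 highest genes per type, all of Hist2 to Hist4, genes open in 4 or fewer libraries, the testis genes, the 5 highest and 5 lowest of siH3.3 over siNT, genes open in 1 siRNA library and the 2 highest and lowest of iPSCs over D0 and D6T- over D0. Other genes named were chosen after their values were seen. For most named genes whose highest summit lay outside the window, the highest summit inside was given too. Alternatives covered the window, the peak threshold, the overlap, shared peaks, the scaling, the fold and unique sequence. Steps were tested on simulated data (6 of 6 recovered). Python 3.11.15, numpy 2.4.6, scipy 1.17.1, pandas 2.3.3 and matplotlib 3.10.9 were used.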

Additional observations from a re-analysis of the deposited data

How the results depend on the processing

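With 1 library per condition no replicate could be left out. No paired analysis was possible because the conditions have 1 library each and no test was run. Of the recomputed shares, relative levels and median changes, 193 stayed within the interval of the main value (Wilson for shares, order statistics for medians, 1 SD over the 7 libraries for types), 28 moved out of it and 2 turned their sign. The open share at D0 was 59.7% when each library was cut to equally many of its strongest peaks (55.2% of all genes) and 64.2% at −log10 q of at least 5, where D9T- stood at 77.6%. Without the 3 testis genes, an alternative chosen after seeing the data, it was 100% at D3, D6T-, D12S+ and D16S+. The level over that of all genes was 0.864 (D3) and 0.932 (D6T-) with equally many strongest peaks, and 0.742 (D3), 0.844 (D6T-), 0.988 (D12S+) and 0.774 (iPSCs) over genes open in all 9 libraries. With that scaling the median log2 changes were 0.062 (D3 over D0), 0.14 (D6T- over D3) and -0.47 (iPSCs over D16S+), and the sign turned for D9T- over D6T- (0.14) and D12S+ over D9T- (-0.023). By fold enrichment they were 0.77 (D6T- over D3) and -1.24 (iPSCs over D16S+). With mostly unique windows, chosen after seeing the data, they were -0.11 (D16S+ over D12S+) and -1.23 (iPSCs over D16S+). Mean relative levels were 1.02 (H2A), 0.986 (H2B), 0.716 (H4) and 0.661 (Hist2) over genes open in all 9 libraries, 0.723 (H2A), 0.858 (H2B) and 0.894 (Hist1) with mostly unique windows, and 0.976 for H2A genes whose peak met no other type, also chosen after seeing the data. The cause was not tested. Pileups of 7 to 11 tags, the lowest called, limit what can be seen at low genes.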
